A study of Mus musculus with 24 samples.

Results

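The genes described here encode the subunits of glutamate receptors and the carriers that supply glutamate to synapses, measured in whole hypothalamus of hypertensive and normotensive mice. The set was defined by gene symbol as 28 genes, and each gene was read from its probe set, the group of probes on the array that carries 1 gene symbol. Of the 28 genes, 26 were analysed among 19937 genes in all, each with 1 probe set. These were 4 AMPA, 5 kainate, 1 delta and 6 NMDA receptor genes, 7 metabotropic receptor genes and 3 supply genes. Grin1 and Gls2 are not analysed here.

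The study hybridised hypothalamic RNA of individual male mice to Affymetrix Mouse Gene ST arrays, without pooling, in 4 groups of 6 mice. The groups were BPH/2J mice at 26 weeks, BPN/3J mice at 26 weeks, BPH/2J mice at 6 weeks and BPN/3J mice at 6 weeks of age. BPH/2J is an inbred hypertensive strain and BPN/3J is its normotensive counterpart, which the design text once writes with the suffix BPN/2J. All mice had standard housing, and all tissue was taken when blood pressure was at its daily peak. The strains differ across the genome, so no single allele separates them.

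Glutamate is the main excitatory transmitter of the brain. AMPA and kainate receptors are ion channels that carry fast currents, NMDA receptors are channels that open when glutamate and depolarisation coincide, and metabotropic receptors act through G proteins. Group I metabotropic receptors raise intracellular calcium, while those of groups II and III lower cyclic AMP and many of them reduce transmitter release. In the hypothalamus, glutamate excites the neurons that drive sympathetic outflow and hormone release, and most glutamate neurons there load their vesicles through the transporter encoded by Slc17a6.

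All values were taken as log2 values after robust multi-array averaging (RMA), so that a difference of 1 is a doubling. Levels of different genes are not compared. Array medians ran from 5.89 to 6.09. Among the 26-week arrays, replicates 5 and 6 of both strains stood apart from replicates 1 to 4 on the first principal component, which held 41.9% of the spread within groups at that age, and no label gives a reason. The mean of 15 hypothalamus markers was 7.63 to 8.26 in 26-week BPH/2J, 7.06 to 8.15 in 26-week BPN/3J, 7.92 to 8.82 in 6-week BPH/2J and 7.19 to 7.86 in 6-week BPN/3J arrays. The mean of 16 thalamus markers, genes of the neighbouring brain region, was 8.82 to 9.03 in 26-week BPH/2J, 8.24 to 9.07 in 26-week BPN/3J, 7.07 to 8.78 in 6-week BPH/2J and 8.69 to 9.06 in 6-week BPN/3J arrays. None of the 16 thalamus markers was at or below the median of probe sets without a gene symbol on all arrays of any group. The 6-week BPH/2J group was thus the most spread in thalamus markers, with replicate 2 at 8.78 and the other 5 arrays lower. Other marker lists varied among 26-week arrays. The striatum mean was 9.02 in BPH/2J replicate 3 (group median 7.60), and the cortex and hippocampus mean was 7.71 in BPN/3J replicate 4 (group median 6.89). Choroid plexus means ran from 5.73 to 8.01 in BPH/2J and from 5.59 to 8.27 in BPN/3J. The part of these lists in the results was not tested.

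At 6 weeks of age, 2 NMDA receptor subunit genes and 1 metabotropic receptor gene were lower in BPH/2J than in BPN/3J hypothalamus. These were Grin2a and Grin2c, whose products set the kinetics of the NMDA receptor, and Grm4, which encodes a presynaptic group III receptor. They were 3 of the 26 genes at an adjusted p below 0.05 (limma, Benjamini-Hochberg over all genes), against 7.42% of all genes called in either direction and 4.42% called lower. No gene of the set was called higher, against 2.99% of all genes.

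**Figure D1:**
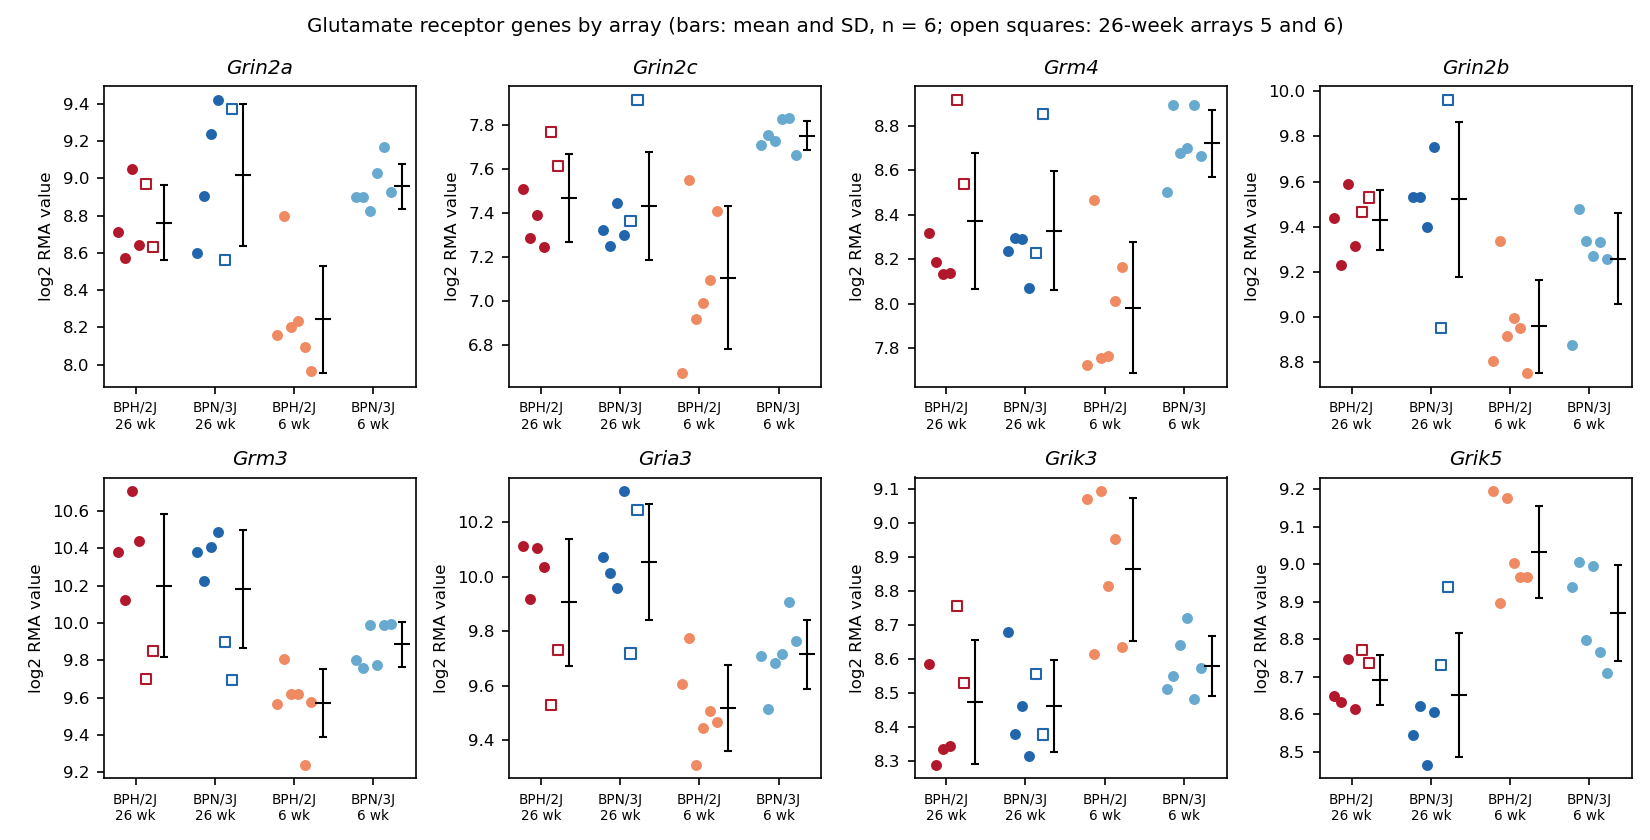
Log2 RMA value of 8 of the 9 genes called in at least 1 comparison (Grm2 is not drawn), 1 point per array by group, with the group mean and SD (n = 6) beside the points and open squares for 26-week replicates 5 and 6. In the 6-week BPH/2J arrays, Grin2a, Grin2c and Grm4 all lie below every 6-week BPN/3J array.

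Grin2a had a lowest, median and highest log2 value of 7.97, 8.18 and 8.80 in 6-week BPH/2J arrays, against 8.83, 8.91 and 9.17 in 6-week BPN/3J arrays. The groups did not overlap, although replicate 2 of the BPH/2J group came close to the lowest BPN/3J array. The difference was -0.72 ± 0.14 (SE, n = 6 each, adjusted p = 0.00172, limma), or 1.64-fold lower.

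Grin2c, a subunit gene known for expression in cerebellum, thalamus and astrocytes, gave 6.67, 7.04 and 7.55 in 6-week BPH/2J arrays as lowest, median and highest, against 7.66, 7.74 and 7.83 in 6-week BPN/3J arrays. All BPH/2J arrays were below all BPN/3J arrays, and the BPN/3J arrays lay close together. The difference was -0.65 ± 0.12 (SE, adjusted p = 0.0013, limma).

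Grm4 gave 7.73, 7.89 and 8.47 in 6-week BPH/2J arrays, against 8.50, 8.69 and 8.89 in 6-week BPN/3J arrays, again as lowest, median and highest. Here too no array of one strain reached into the other, with replicate 2 the highest BPH/2J array. The difference was -0.74 ± 0.14 (SE, adjusted p = 0.00118, limma), or 1.67-fold lower. Including Slc17a8, which did not pass the test, 4 genes of the set had groups that did not overlap, against 5.44% of all genes.

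Between strains at 6 weeks, most thalamus markers differed in the same direction as these 3 genes. In 6-week BPH/2J against BPN/3J, 15 of 16 thalamus markers were called lower and none higher, 7 of 11 oligodendrocyte markers were called lower, and 9 of 15 hypothalamus markers were called higher. With the thalamus marker mean as a covariate, the strain differences were -0.37 ± 0.19 for Grin2a, -0.24 ± 0.15 for Grin2c and -0.30 ± 0.17 for Grm4 (SE). None of the 3 was then called (adjusted p = 0.642, 0.780 and 0.726, limma), nor was any other gene of the set, against 0.903% of all genes. At an unadjusted p below 0.05, 1 of the 26 genes differed under it, against 8.41% of all genes. Over all alternatives run, the adjusted p ran from 1.29e-05 to 0.642 for Grin2a, from 9.93e-07 to 0.780 for Grin2c and from 6.46e-07 to 0.726 for Grm4. In bulk tissue, fewer cells of a type and less RNA per cell cannot be told apart.

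**Figure D2:**
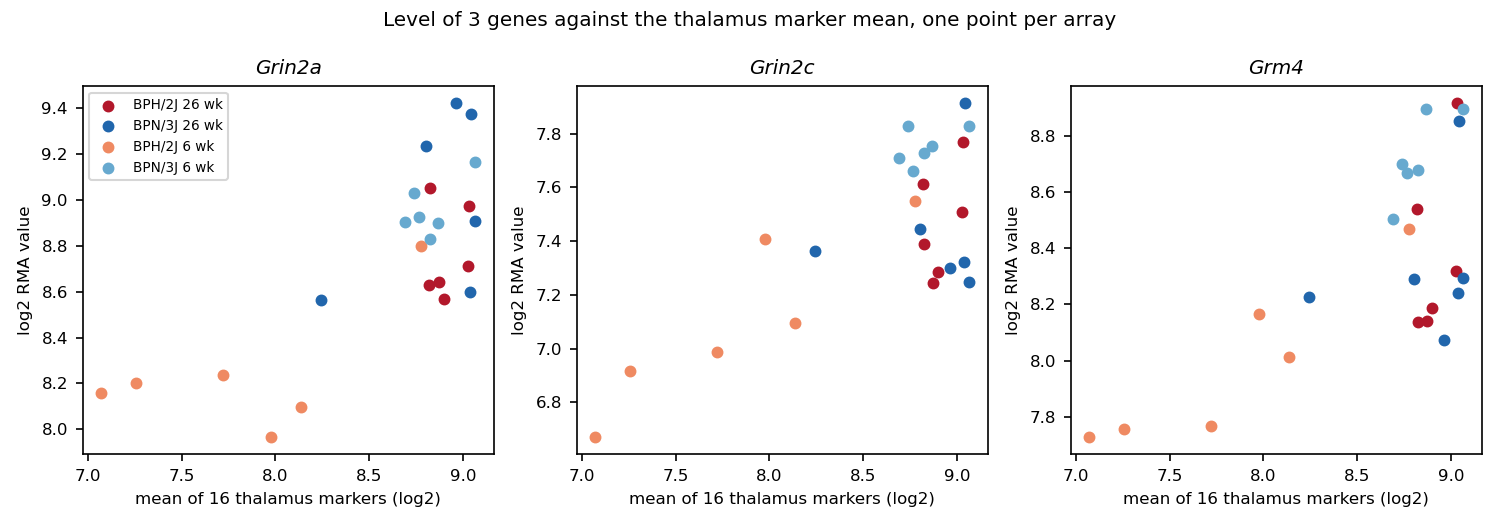
Log2 RMA value of Grin2a, Grin2c and Grm4 (vertical axes) against the mean log2 value of 16 thalamus markers (horizontal axes), 1 point per array, coloured by group. Among 6-week BPH/2J arrays, replicate 2 has a thalamus marker mean of 8.78 and also the highest value of all 3 genes. Replicate 1 has the lowest marker mean of that group, 7.07, and its lowest Grin2c and Grm4 values. Grin2a is lowest in replicate 6, at 7.97.

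Leaving out replicate 2 of the 6-week BPH/2J group left these 3 genes called and added 3 more, against 9.84% of all genes. The differences were then -0.83 for Grin2a, -0.74 for Grin2c and -0.84 for Grm4. The added genes were Grik3 at 0.33 (adjusted p = 0.0188), Grik4 at 0.21 (adjusted p = 0.0485) and Slc17a6 at -0.27 (adjusted p = 0.030, limma).

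Promoters are shown for some of the called genes, which moved in opposite directions with strain or age, and no difference by direction was tested. RefSeq promoter windows (GRCm38.p6, 250 bases before to 50 after each start) were matched by symbol for 17 of the 26 genes, giving 22 windows. The median GC content was 62.4% over these windows, against 52.7% over 32851 RefSeq windows, a background that leaves out 1 chromosome. The GC box GGGCGG, searched on both strands, was in 11 of 22 windows, against 35.7% of the 32851 windows. The windows are not independent, since some genes have several, and those of Grm7 overlap and hold the same GC box. The cyclic AMP element TGACGTCA was in 0 of 22, against 1.79%, and TATAAA was in 1 of 22, against 13.6%. Capitals mark GC boxes on either strand, and boxes that share bases run together.
Grin2c promoter, chr11:115267194-115267493, minus strand: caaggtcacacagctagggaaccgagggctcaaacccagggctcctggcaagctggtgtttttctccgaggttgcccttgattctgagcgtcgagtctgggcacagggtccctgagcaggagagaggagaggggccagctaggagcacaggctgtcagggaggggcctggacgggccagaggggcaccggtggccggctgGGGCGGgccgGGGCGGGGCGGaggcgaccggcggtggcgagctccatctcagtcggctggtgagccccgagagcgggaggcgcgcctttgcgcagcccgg
Grik3 promoter, chr4:125490446-125490745, plus strand: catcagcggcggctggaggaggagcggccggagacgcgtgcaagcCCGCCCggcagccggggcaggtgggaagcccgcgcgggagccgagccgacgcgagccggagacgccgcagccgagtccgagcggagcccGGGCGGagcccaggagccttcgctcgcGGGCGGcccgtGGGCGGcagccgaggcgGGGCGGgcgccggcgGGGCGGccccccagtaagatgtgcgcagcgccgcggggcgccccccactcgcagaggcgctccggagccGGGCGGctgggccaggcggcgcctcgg
Grm3 promoter, chr5:9725303-9725602, minus strand: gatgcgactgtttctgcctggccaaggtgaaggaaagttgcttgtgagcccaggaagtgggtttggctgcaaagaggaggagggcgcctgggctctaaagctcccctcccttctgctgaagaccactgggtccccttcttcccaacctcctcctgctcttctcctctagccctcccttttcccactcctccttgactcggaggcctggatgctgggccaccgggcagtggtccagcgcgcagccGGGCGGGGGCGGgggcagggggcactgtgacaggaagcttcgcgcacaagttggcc
The Grik3 window held 7 GC boxes and 50 CpG dinucleotides at a GC content of 82.0%. The Grin2c window held 3 GC boxes and 22 CpG dinucleotides at 70.0%, and the Grm3 window held 2 GC boxes and 11 CpG dinucleotides at 63.7%. Windows of Grik5 and Grm2 are not printed. Grik5, called lower with age in BPH/2J like Grik3, had 2 GC boxes and 10 CpG dinucleotides at 72.0%. Grm2, called lower with age in BPN/3J, had 4 GC boxes and 22 CpG dinucleotides at 72.0%.

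The other NMDA receptor genes did not pass the test for strain at 6 weeks. Grin2b, which encodes the subunit typical of young synapses, differed by -0.30 ± 0.13 (SE, adjusted p = 0.181), and Grin2d and Grin3a had mean log2 values of 8.07 and 8.63 in BPH/2J, against 8.21 and 8.73 in BPN/3J. Grin3b averaged 5.85 in both strains. Of the 6 NMDA receptor genes, 2 were called lower and none higher.

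The kainate receptor genes leaned the other way without passing the test. Grik3 averaged 8.86 ± 0.21 in 6-week BPH/2J and 8.58 ± 0.09 in 6-week BPN/3J arrays (SD, n = 6 each), a difference of 0.28 ± 0.09 (SE, adjusted p = 0.0581, limma). Grik4 and Grik5, which encode high-affinity subunits that need a partner subunit, differed by 0.18 and 0.16, Grik2 by 0.10 and Grik1 by -0.11. Thus 4 of 5 differences were positive and none was called.

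The 4 AMPA receptor genes spread from -0.20 for Gria3 to 0.28 for Gria2, with none called. Gria2 encodes the subunit that keeps most AMPA receptors impermeable to calcium, and its difference had an adjusted p of 0.128. Grid1, a delta receptor gene whose product links synapses more than it conducts current, differed by 0.09.

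Among metabotropic receptor genes other than Grm4, differences at 6 weeks ran from -0.31 for Grm3 to 0.17 for Grm5, and none was called. Grm5 encodes a group I receptor and Grm3 a group II receptor found on neurons and astrocytes. All 3 supply genes had negative differences that missed the threshold. Slc17a6, the vesicular transporter gene, averaged 11.84 ± 0.14 in BPH/2J and 12.07 ± 0.07 in BPN/3J arrays (SD, n = 6 each, adjusted p = 0.0984). Slc1a1, which encodes the neuronal uptake carrier, differed by -0.14. Slc17a8, a vesicular transporter of scattered neurons, ran from 5.45 to 5.66 in BPH/2J and from 5.73 to 6.13 in BPN/3J arrays, without overlap (adjusted p = 0.237).

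Across the 26 genes the median strain difference at 6 weeks was -0.09, against 0.01 over all genes, and 12 of 26 were positive, against 54.5% of all genes. At an unadjusted p below 0.05, 11 of the 26 genes differed, against 18.1% of all genes. Grm6, Grin3b and Slc17a8 were dim throughout, with group means between 5.40 and 5.88, where the array medians of probe sets without a gene symbol were 4.60 to 5.25.

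**Figure D3:**
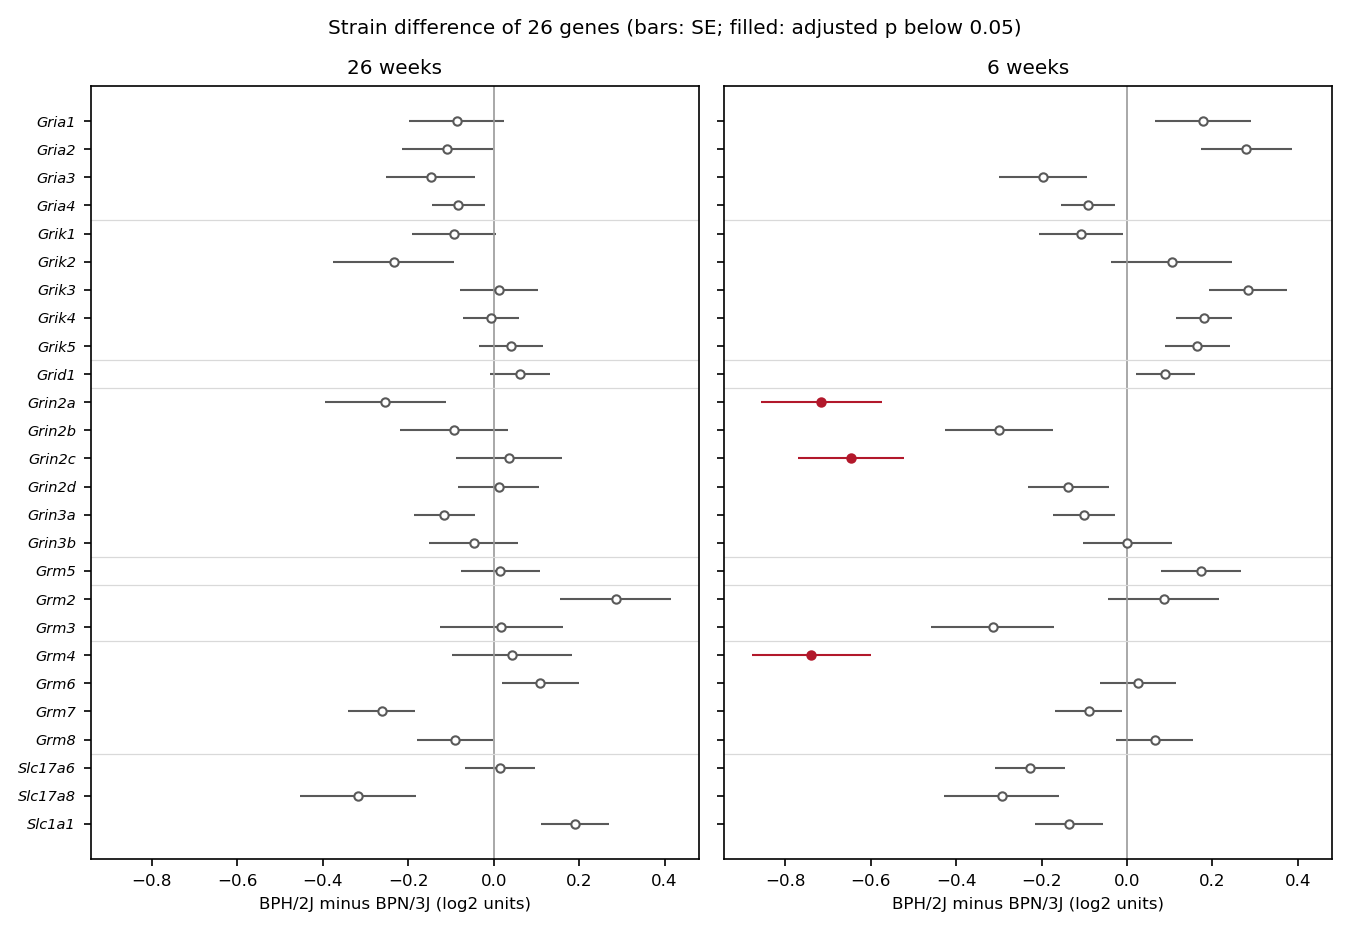
Log2 difference of BPH/2J minus BPN/3J for each of the 26 genes at 26 weeks (left) and 6 weeks (right), with SE bars and filled points for an adjusted p below 0.05. The 3 filled points at 6 weeks, Grin2a, Grin2c and Grm4, are all negative, and no point is filled at 26 weeks.

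At 26 weeks of age, none of the 26 genes passed the test between BPH/2J and BPN/3J mice, against 2.67% of all genes (limma). At an unadjusted p below 0.05, 4 of the 26 genes differed, a share near the 12.5% of all genes. No gene of the set had groups without overlap, against 1.75%. Grm7, which encodes a presynaptic group III receptor, had the smallest p of them. It gave 8.83, 8.91 and 9.09 as lowest, median and highest value in 26-week BPH/2J arrays, against 8.86, 9.20 and 9.50 in 26-week BPN/3J arrays. The groups overlapped, and the BPN/3J arrays reached higher. The difference was -0.26 ± 0.08 (SE, adjusted p = 0.0814, limma).

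Grm7 was called without replicate 5 of the 26-week BPN/3J group, at -0.33 (adjusted p = 0.00711), against 3.62% of all genes. It was also called at -0.29 in 26-week replicates 1 to 4 alone (adjusted p = 0.0186), against 2.69%, and at -0.27 with the thalamus covariate (adjusted p = 0.0403), against 2.89%. The other 3 were Slc17a8 at -0.32, Slc1a1 at 0.19 and Grm2, a group II autoreceptor gene, at 0.29, with adjusted p from 0.286 to 0.353. All 4 AMPA receptor genes had negative differences, from -0.15 to -0.08, and none was called. The genes called at 6 weeks differed at 26 weeks by -0.25 for Grin2a, 0.04 for Grin2c and 0.04 for Grm4. At this age the thalamus marker mean averaged 8.91 in BPH/2J and 8.86 in BPN/3J arrays.

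Whether the strain difference itself differed between ages was tested as an interaction, the strain difference at 26 weeks minus that at 6 weeks. None of the 26 genes passed, against 0.0301% of all genes, and 7 of the 26 had an unadjusted p below 0.05, against 10.8% of all genes. Grm4 came nearest at 0.78 ± 0.20 (SE, adjusted p = 0.0859), followed by Grin2c at 0.68 ± 0.18 (SE, adjusted p = 0.0884, limma). Both were called without replicate 2 of the 6-week BPH/2J group, at 0.88 and 0.77 (adjusted p = 0.00845 each), against 2.49% of all genes. Both were also called when membership of the 26-week array sets entered the model, at 0.78 and 0.68 (adjusted p = 0.0278 and 0.0332), against 1.26% of all genes. That term was chosen after the data were seen, and it left the differences themselves as they were. With the thalamus marker mean as a covariate the values were 0.32 for Grm4 and 0.25 for Grin2c, with adjusted p of 0.943 and 0.948. The other 5 genes with an unadjusted p below 0.05 were Gria2 at -0.39, Grin2a at 0.46, Slc1a1 at 0.33, Grik3 at -0.27 and Slc17a6 at 0.24.

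With age in BPH/2J mice, 3 NMDA receptor genes, 1 AMPA receptor gene and Grm3 were higher and 2 kainate receptor genes were lower. Of the 26 genes, 7 passed the test between 26 and 6 weeks, against 16.9% of all genes. The 5 called higher, against 8.23% of all genes, were Grin2a, Grin2b, Grin2c, Gria3 and Grm3. The 2 called lower, against 8.64%, were Grik3 and Grik5.

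Grin2b gave 9.23, 9.45 and 9.59 as lowest, median and highest in 26-week BPH/2J arrays, against 8.75, 8.93 and 9.34 in 6-week BPH/2J arrays, a difference of 0.47 ± 0.13 (SE, adjusted p = 0.0124, limma). The groups overlapped only between 9.23 and 9.34. Grin2a gave 8.57, 8.68 and 9.05 at 26 weeks, against 7.97, 8.18 and 8.80 at 6 weeks, a difference of 0.52 ± 0.14 (SE, adjusted p = 0.0136). Replicate 2 of the 6-week group reached into the 26-week range, and its other 5 arrays lay below it.

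Grin2c gave 7.24, 7.45 and 7.77 at 26 weeks, against 6.67, 7.04 and 7.55 at 6 weeks, a difference of 0.36 ± 0.12 (SE, adjusted p = 0.0448, limma). The ranges overlapped. The call was lost without any one of 6-week BPH/2J replicates 1, 3, 4 and 5, of 26-week BPH/2J replicates 1, 3, 5 and 6 and of the 6 arrays of 6-week BPN/3J, which share in the estimate of the spread. Over the 24 fits that each left out 1 array, the difference ran from 0.28 to 0.45 and the adjusted p reached 0.125.

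Grm3 gave 9.70, 10.25 and 10.71 in 26-week BPH/2J arrays, against 9.24, 9.60 and 9.80 in 6-week BPH/2J arrays. The 26-week arrays were the more spread, and their lowest fell within the 6-week range. The difference of 0.63 ± 0.14 (SE, adjusted p = 0.00432, limma), or 1.55-fold higher, was the largest among the 7. Gria3, an AMPA receptor subunit gene, gave 9.53, 9.98 and 10.12 at 26 weeks, against 9.31, 9.49 and 9.78 at 6 weeks, a difference of 0.39 ± 0.10 (SE, adjusted p = 0.0122). Its ranges overlapped between 9.53 and 9.78.

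Grik5 gave 8.61, 8.69 and 8.77 in 26-week BPH/2J arrays, against 8.90, 8.98 and 9.19 in 6-week BPH/2J arrays. It was the 1 gene of the 26 whose age groups did not overlap in BPH/2J, against 4.05% of all genes. The difference was -0.34 ± 0.08 (SE, adjusted p = 0.00332, limma). Grik3 gave 8.29, 8.44 and 8.76 at 26 weeks, against 8.61, 8.88 and 9.09 at 6 weeks, a difference of -0.39 ± 0.09 (SE, adjusted p = 0.00491). Its ranges overlapped between 8.61 and 8.76.

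The other 19 genes did not pass in BPH/2J. Grm4 averaged 8.37 ± 0.31 at 26 weeks and 7.98 ± 0.29 at 6 weeks (SD, n = 6 each, adjusted p = 0.0563), Grin3b differed by -0.28 (adjusted p = 0.0623) and Slc17a6 by 0.21 (adjusted p = 0.0762). Without replicate 2 of the 6-week group, 9 genes were called, against 19.9% of all genes, with Grm4 at 0.49 and Slc17a6 at 0.26 added. The median over the 26 genes was -0.04, against -0.03 over all genes, and 12 of 26 differences were positive, against 42.9%.

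With age in BPH/2J, 15 of 16 thalamus markers were called higher and 7 of 15 hypothalamus markers lower. With the thalamus marker mean as a covariate, none of the 26 genes was called, against 0.0401% of all genes, and 2 had an unadjusted p below 0.05, against 8.68% (limma). Under it Grm3 was at 0.54 ± 0.23 (SE, adjusted p = 0.513, where all its alternatives ran from 2.84e-06 to 0.513), while Grin2b was at 0.05 and Grin2c at -0.08.

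**Figure D4:**
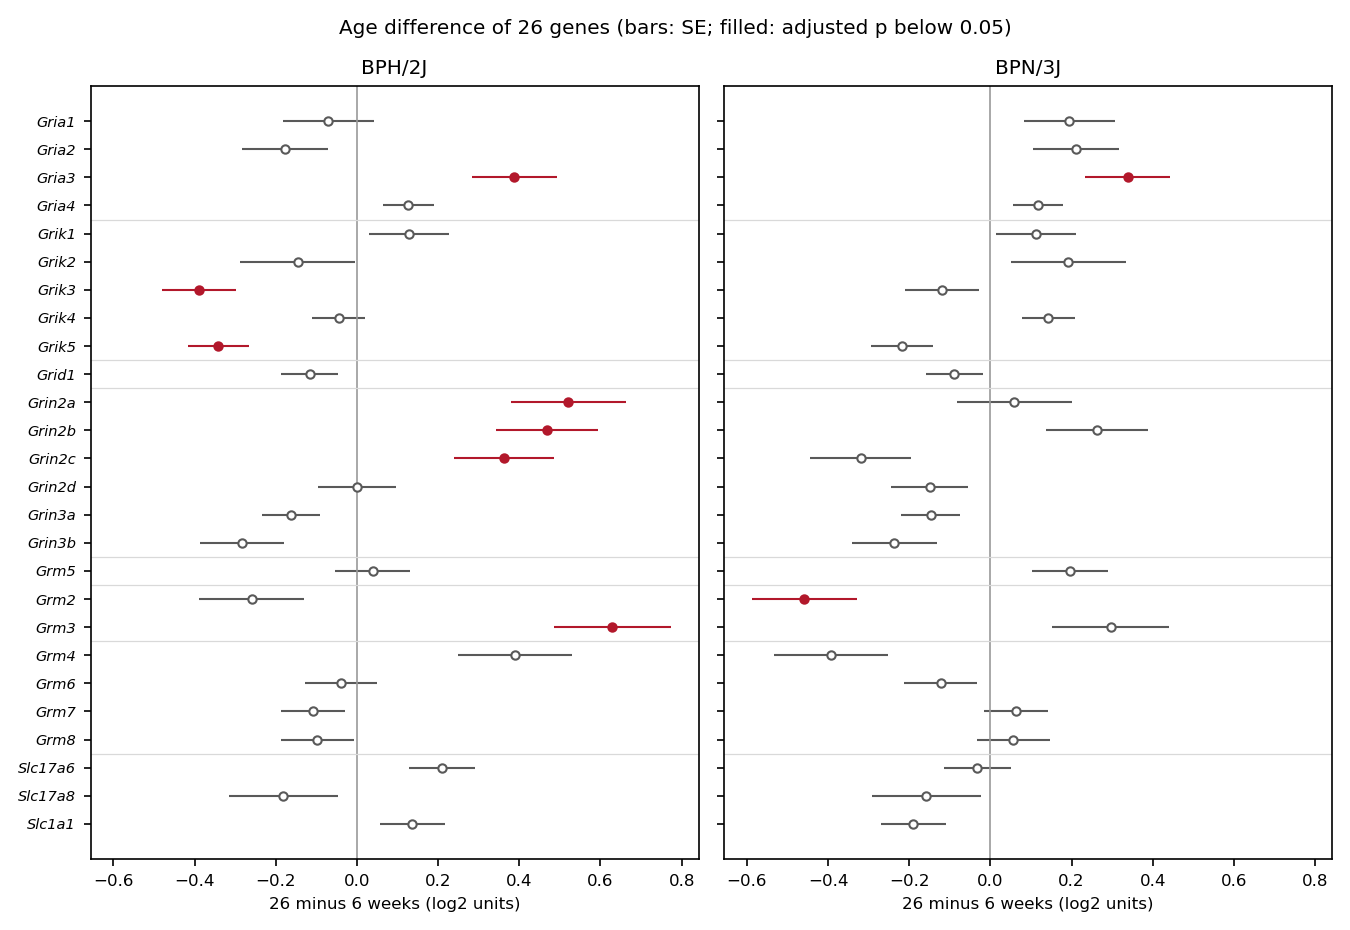
Log2 difference of 26 minus 6 weeks for each of the 26 genes in BPH/2J (left) and BPN/3J mice (right), with SE bars and filled points for an adjusted p below 0.05. Gria3 is filled on the positive side in both strains, while Grik3 and Grik5 are filled on the negative side in BPH/2J alone, a contrast between strains that did not pass the interaction test.

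With age in BPN/3J mice, 2 of the 26 genes passed, against 12.3% of all genes. Gria3 was called higher, against 4.60% of all genes, and Grm2, which encodes a group II autoreceptor, was called lower, against 7.66%. No gene of the set had groups without overlap, against 4.57%, and 13 of 26 differences were positive, against 44.0%.

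Gria3 gave 9.72, 10.04 and 10.31 as lowest, median and highest in 26-week BPN/3J arrays, against 9.51, 9.71 and 9.91 in 6-week BPN/3J arrays, a difference of 0.34 ± 0.10 (SE, adjusted p = 0.0346, limma). Its groups overlapped between 9.72 and 9.91. The call was lost without any one of 6-week BPN/3J replicates 1, 2, 3 and 4 or 26-week BPN/3J replicates 1, 2, 4 and 6, with differences of 0.29 to 0.41 and adjusted p up to 0.0994 over the 24 fits that each left out 1 array.

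Grm2 gave 8.48, 8.64 and 8.88 in 26-week BPN/3J arrays, against 8.80, 9.07 and 9.47 in 6-week BPN/3J arrays, a difference of -0.46 ± 0.13 (SE, adjusted p = 0.0244, limma). The groups overlapped only between 8.80 and 8.88. The call was lost without 6-week replicate 2 or 26-week replicate 4, where the adjusted p reached 0.0633 and no gene of the set stayed called.

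Without 26-week BPN/3J replicate 5, 9 genes of the set were called with age in BPN/3J, against 21.2% of all genes. Those added were Gria1 at 0.29, Gria2 at 0.30, Grin2b at 0.38, Grm5 at 0.28, Grik5 at -0.23, Grin3b at -0.31 and Slc17a8 at -0.33. That array had the lowest thalamus marker mean of its group, 8.24, and the part of this in the result was not tested. Without 26-week BPN/3J replicate 6, 5 genes were called, against 16.9% of all genes, namely Grm2 at -0.47, Grin2c at -0.42, Grm4 at -0.50, Grik5 at -0.27 and Grik4 at 0.19. On that array the median of probe sets without a gene symbol was 5.25, against at most 4.85 on any other array. With all arrays, Grin2c, Grm4 and Grik5 differed by -0.32, -0.39 and -0.22, with adjusted p of 0.0868, 0.0638 and 0.0576. With the thalamus marker mean as a covariate, 6 genes of the set were called, against 12.6% of all genes, namely Gria3 and Grm2 together with Grin2c at -0.33, Grm4 at -0.41, Grik5 at -0.21 and Slc1a1 at -0.20. In BPN/3J none of the 16 thalamus markers was called with age, and 7 of 11 oligodendrocyte markers were called lower.

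The 17 genes that passed in no comparison are given by their mean log2 values in 26-week BPH/2J, 26-week BPN/3J, 6-week BPH/2J and 6-week BPN/3J arrays, always in that order. Of the AMPA receptor genes, Gria1 averaged 10.65, 10.74, 10.72 and 10.54. Gria2 averaged 10.50, 10.61, 10.68 and 10.40, and Gria4 averaged 10.07, 10.16, 9.95 and 10.04. The Gria4 difference with age was 0.13 in BPH/2J and 0.12 in BPN/3J, and neither passed the test (adjusted p = 0.165 and 0.210, limma).

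Of the kainate receptor genes, Grik1 averaged 7.52, 7.62, 7.39 and 7.50 and Grik2 averaged 8.96, 9.20, 9.11 and 9.01, while Grik4 averaged 7.98, 7.99, 8.03 and 7.85. The delta receptor gene Grid1 averaged 8.79, 8.73, 8.91 and 8.82. Of the NMDA receptor genes, Grin2d averaged 8.07, 8.06, 8.07 and 8.21, Grin3a averaged 8.47, 8.59, 8.63 and 8.73, and Grin3b averaged 5.57, 5.62, 5.85 and 5.85. Grin3a and Grin3b encode subunits that lower the calcium permeability of the receptor, and both had lower means at 26 than at 6 weeks in each strain without passing the test.

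Of the metabotropic receptor genes, Grm5 averaged 10.23, 10.21, 10.19 and 10.02. Grm6, whose product is known for signalling in retinal bipolar cells, averaged 5.51, 5.40, 5.54 and 5.52. Grm7 averaged 8.92, 9.19, 9.03 and 9.12, and Grm8, a further presynaptic group III receptor gene, averaged 7.78, 7.87, 7.88 and 7.82. Grm8 differed by no more than 0.10 in any of the 4 comparisons between groups. Of the supply genes, Slc17a6 averaged 12.05, 12.04, 11.84 and 12.07, Slc17a8 averaged 5.40, 5.72, 5.59 and 5.88, and Slc1a1 averaged 9.81, 9.62, 9.68 and 9.81.

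The 2 sets of 26-week arrays were set against the 6-week arrays one at a time, a split chosen after the data were seen. With 26-week replicates 1 to 4 alone, 13 genes were called with age in BPH/2J, against 39.3% of all genes, and 14 in BPN/3J, against 33.6%. With replicates 5 and 6 alone, 1 was called in BPH/2J, Grm4 at 0.74 (adjusted p = 0.0493), against 1.95% of all genes, and none in BPN/3J, against 0.135%, where 3 had an unadjusted p below 0.05, against 15.0% (limma). A group of 2 arrays gives fewer calls at the same difference, so the differences themselves are given next.

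In BPH/2J, Grin2a and Grin2b had like differences in both sets, 0.50 and 0.43 in replicates 1 to 4 against 0.56 and 0.54 in replicates 5 and 6. Grm3 did not, with 0.84 in replicates 1 to 4 and 0.20 in replicates 5 and 6. Gria3 gave 0.53 and 0.11, Grik3 -0.47 and -0.22, Grik5 -0.37 and -0.28, Grin2c 0.25 and 0.58, and Grm4 0.21 and 0.74, in the same order of sets. Grm2 was on opposite sides of 0, at -0.44 and 0.10.

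In all, 10 of 26 genes had opposite signs in the 2 sets in BPH/2J, and 6 of 26 did in BPN/3J. The median size of the difference in BPH/2J was 0.20 in replicates 1 to 4 and 0.19 in replicates 5 and 6. In BPN/3J it was 0.22 and 0.11. Grm2 in BPN/3J was negative in both sets, at -0.53 and -0.31, and Gria3 was positive in both, at 0.37 and 0.27.

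**Figure D5:**
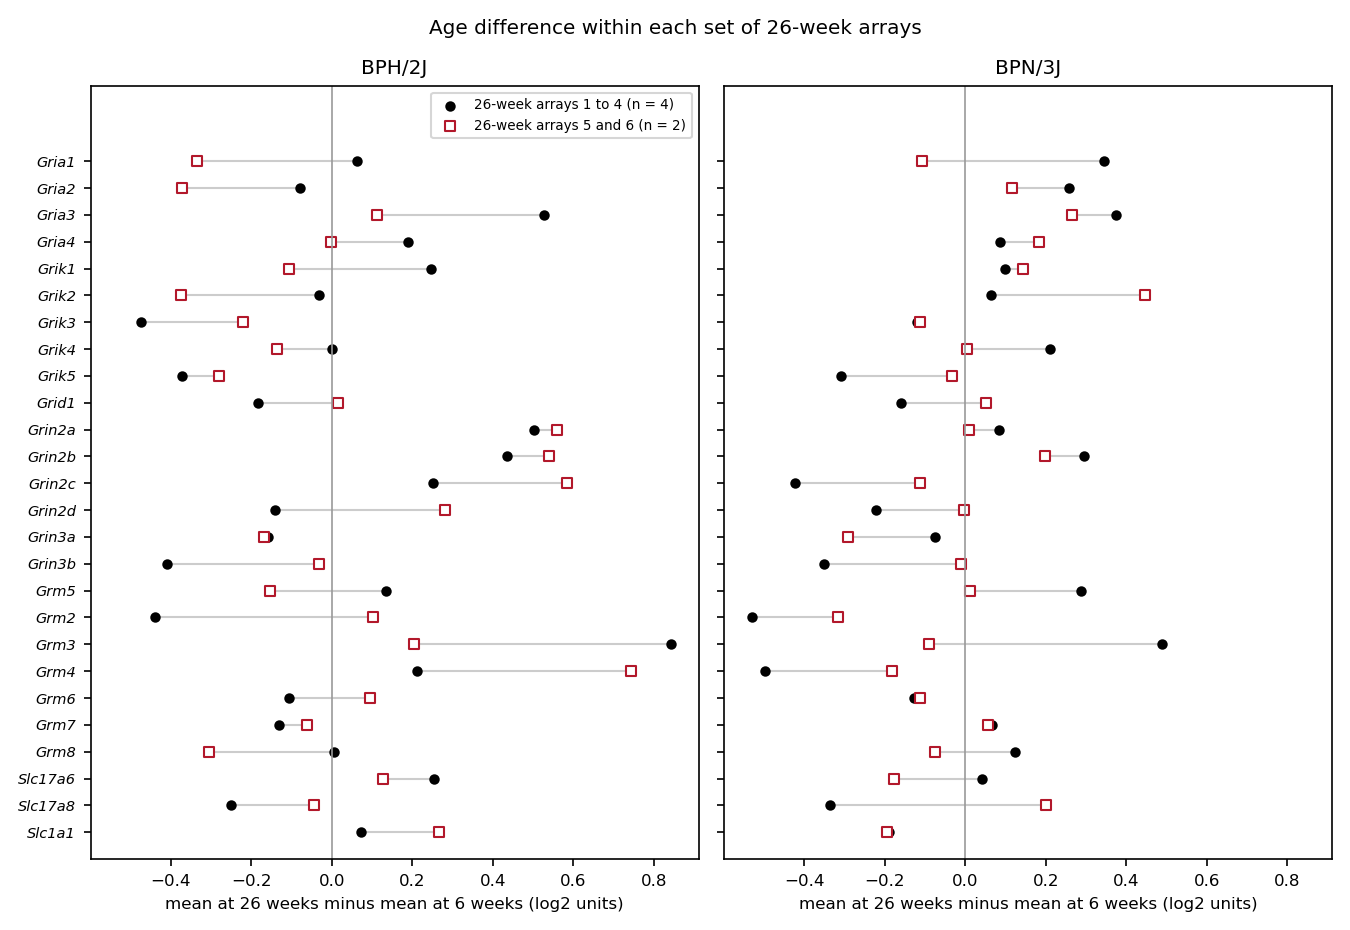
Mean log2 value of 26-week arrays minus the mean of all 6-week arrays for each of the 26 genes, in BPH/2J (left) and BPN/3J mice (right), with filled circles for 26-week replicates 1 to 4 and open squares for replicates 5 and 6. Grin2a and Grin2b in BPH/2J have circle and square close together, while Grm3 in BPH/2J has them at 0.84 and 0.20.

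Other genes of glutamate transmission, a list of 60 of which 54 were analysed, covered transporters, enzymes, receptor partners and scaffolds. For strain at 6 weeks, 6 of the 54 were called higher, against 2.99% of all genes, and 8 lower, against 4.42%. Shisa6, an AMPA receptor partner, averaged 6.62 in BPH/2J and 7.71 in BPN/3J, a difference of -1.10 ± 0.14 (SE, adjusted p = 1.1e-05, limma). The scaffold genes Shank3 and Dlgap3 differed by -0.84 and -0.61, and Slc7a11, which encodes the cystine and glutamate exchanger, by 0.85. These 4 had no overlap between strains, against 5.44% of all genes. They were picked by their small p in the same comparison, which favours genes without overlap, so nothing is drawn from that share. The thalamus markers were lower in BPH/2J in this comparison, as were Shisa6, Shank3 and Dlgap3, whereas Slc7a11 was higher. The part of the thalamus markers in these differences was not tested.

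For strain at 26 weeks, 2 of the 54 were called higher and 1 lower, against 2.67% of all genes in either direction. Glul, which encodes glutamine synthetase of astrocytes, averaged 12.43 in BPH/2J and 12.13 in BPN/3J, a difference of 0.30 ± 0.06 (SE, adjusted p = 0.00369, limma). Slc7a11 differed by 0.48 and Cpt1c, an AMPA receptor partner of neurons, by -0.27. Glul and Cpt1c had no overlap between strains, against 1.75% of all genes. Both were named because they were called in this comparison, so nothing is drawn from that share either.

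With age in BPH/2J, 11 of the 54 were called higher, against 8.23% of all genes, and 7 lower, against 8.64%. Of 22 scaffold genes, 7 were called higher and none lower. In the same comparison 15 of 16 thalamus markers were called higher, and their part in these counts was not tested. Shisa6 differed by 0.96 and Cacng7, another AMPA receptor partner, by 0.68. The carrier genes Slc1a4, for neutral amino acids, and Slc1a3, for glutamate uptake by astrocytes, differed by -0.54 and -0.43. With age in BPN/3J, 1 was called higher, against 4.60% of all genes, and 8 lower, against 7.66%, with Slc1a4 at -0.36, Slc1a3 at -0.28, Gsg1l, an AMPA receptor partner, at -0.41 and Glud1, which encodes glutamate dehydrogenase, at -0.22.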

How the data were processed

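Total RNA of 24 hypothalami was hybridised to 1 array each. Per the submitters' processing notes, the authors used RMA and limma. The deposited values were taken to be on a log2 scale (1.54 to 14.3, none missing). Tool versions, annotation release and genome build: not given in the sources used here. Of 34760 probe sets, 21640 carried 1 gene symbol in the platform annotation, 1321 several and 11799 none. Each of 19937 genes was represented by its single-symbol probe set with the highest mean, and all 26 analysed genes matched RefSeq by Entrez ID.

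A model with a mean for each group was fitted to all 24 arrays in limma 3.58.1 under R 4.3.3 (20 residual degrees of freedom), with Benjamini-Hochberg adjustment over all genes within each comparison and a threshold of 0.05. The procedure was tested on simulated data. Groups came from the sample titles and strain and age labels. The number of arrays limits the precision. Every gene of the set is named, those that passed with their ranges, and of the 54 other pathway genes up to 4 called with the smallest p per comparison. The members, the other lists and the tests were chosen with earlier results of these data known.

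Replicate numbers in the titles were checked as pairs by correlating deviations from group means. At 26 weeks all 6 pairs of BPH/2J and BPN/3J arrays correlated above 0.1 (0.13 to 0.444). Of the 6 BPH/2J arrays, 3 correlated best with the BPN/3J array of their own number. Replicates 5 and 6 stood apart in both strains, and the part of this in the correlations was not tested. The numbers were treated as possible pairs there, from the data and not from a label. At 6 weeks none of 6 pairs correlated above 0.1. Alternatives changed the arrays in the fit, the replicate block, the probe sets, a filter on low values, the scaling, the variance model, array weights and a thalamus covariate, and left out each array.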

Additional observations from a re-analysis of the deposited data

Results flagged for a closer look

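Within groups of 6 arrays, the highest or lowest array of 11 of 104 gene and group combinations stood far from the others by Dixon's test, where chance gives about 1 in 20. By this test, 26-week BPN/3J replicate 6 was flagged as the highest of its group for 4 genes. These were Gria4 at 10.38 (next 10.17), Grik2 at 10.03 (next 9.21), Grin2c at 7.91 (next 7.45) and Grm4 at 8.85 (next 8.29). The same array was also the highest, without a flag, for Grik1, Grik5, Grid1, Grin2b, Grin2d, Grm7 and Slc1a1. That array also had the highest median of probe sets without a gene symbol, 5.25, where the next of all 24 arrays had 4.85. Counted above each array's own such median, Gria4 on replicate 6 was the lowest of its group at 5.13, Grin2c was level with replicate 3 (2.67 and 2.66), and Grik2 (4.78) and Grm4 (3.60) stayed the highest of their group. The 26-week BPN/3J replicate 5 was flagged as lowest for Grm5 at 9.81 and as highest for Slc17a8 at 6.60 (next 5.66). The 26-week BPH/2J replicate 5 was highest for Grm2 at 9.65, where the next array was at 8.91.

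Among 6-week arrays, BPH/2J replicate 2 was highest for Grin2a at 8.80, where the next was at 8.24. BPN/3J replicate 1 was lowest for Grin2b at 8.88 and for Grm7 at 8.95, and BPN/3J replicate 4 was highest for Grik4 at 7.96.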

How the results depend on the processing

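The count of the 26 genes called for strain at 6 weeks, 3, with 7.42% of all genes, became 8 in a fit of those 2 groups alone (11.6% of all genes), 14 with array weights (18.7%), 0 with the thalamus marker mean as a covariate (0.903%) and 6 with a replicate block over 6-week arrays only (8.42%). It ran from 3 to 6 when each array was left out (5.19% to 9.84% of all genes over these fits). For strain at 26 weeks, the count of 0 (2.67%) became 1 with array weights (2.75%), with the thalamus covariate (2.89%) and with 26-week replicates 1 to 4 only (2.69%), and ran from 0 to 1 on leaving out arrays (2.15% to 3.62%). For age in BPH/2J, 7 (16.9%) became 13 with array weights (37.5%) and with 26-week replicates 1 to 4 only (39.3%), 0 with the thalamus covariate (0.0401%) and 1 with replicates 5 and 6 only (1.95%), and ran from 6 to 9 (10.7% to 24.3%). For age in BPN/3J, 2 (12.3%) became 4 in a fit of those 2 groups alone (11.9%), 13 with array weights (32.2%), 6 with the covariate (12.6%), 14 with replicates 1 to 4 only (33.6%) and 0 with replicates 5 and 6 only (0.135%), and ran from 0 to 9 (5.19% to 21.2%). For the interaction, 0 (0.0301%) became 3 with array weights (3.43%) and 2 with a term for the array sets (1.26%), and ran from 0 to 2 (0.00% to 2.49%). Grin2c with age in BPH/2J changed sign to -0.0784 with the covariate. The splits by array set and the term for the array sets were chosen after the data were seen. Fits to fewer arrays have fewer degrees of freedom. Otherwise the cause was not tested.

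With the replicate number as a block over all arrays, the counts were 4 for strain at 6 weeks (7.80% of all genes), 0 for strain at 26 weeks (2.76%), 10 for age in BPH/2J (19.5%), 3 for age in BPN/3J (15.4%) and 0 for the interaction (0.135%). At 26 weeks, where the numbers were treated as possible pairs, the block changed no call. Over 12 differences of called genes and 405 alternative values, 359 kept direction and call, 45 kept direction and lost the call and 1 changed sign. Many of these alternatives, such as leaving out an array of a group not compared, cannot change the difference itself. They can change only its p, so their kept direction is no evidence of stability. Signal near background limits Grm6, Grin3b and Slc17a8.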
